A study of Mus musculus with 24 samples.

Results

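Acod1, Nos2, Sod2, Hmox1, Nqo1, Gclm, Slc7a11, Srxn1, Txnrd1 and Nfe2l2 encode enzymes of itaconate and nitric oxide synthesis and of the defence against oxidants, together with the transcription factor that controls much of that defence. These 10 genes were taken by symbol, 10 of the 20555 genes in each of 2 expression tables, and all 10 were tested in both. They were chosen by symbol with the measured levels of both tables in view, and without a stated threshold, so their values are a description, and p-values from the fit over all genes are no independent evidence for them. RNA sequencing gave the levels of all genes in endothelial cells and in microglia, sorted from slices of mouse brain that had received phosphate-buffered saline (PBS) or exosomes, small vesicles released by cells, at 5 µg per slice on 2 consecutive days. The exosomes were those labelled wild type (WT) or those of knockouts labelled KO1 and KO2, and all carried the green membrane dye PKH67. The series title names CEMIP, a hyaluronan-binding protein, in tumour exosomes, so the design asks what WT exosomes change against PBS and whether the knockout exosomes differ from WT.

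The knockouts concern the source of the exosomes and not the mouse, so no mouse gene checks them, and each of KO1 and KO2 is named without further description. The labels give neither strain nor age of the mice nor the origin of the exosomes. The endothelial gate took CD31-positive cells lacking CD45, and the microglial gate took cells of low CD49d and low CD11b among CD45-positive cells, and the labels describe PBS samples too as exosome-positive after sorting. Libraries carry a letter, A, B or C. Among 10 endothelial libraries, PBS and KO1 had each letter, WT had A and B, and KO2 had B and C; among 11 microglia libraries, PBS had A and B and each exosome group had every letter. The 3 libraries that would complete this set were not analysed here. What the letters stand for is not stated, so p-values rest on a spread among libraries that may be technical only.

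Acod1 (also called Irg1) makes itaconate from an intermediate of the citric acid cycle in activated macrophages, and Nos2, the inducible nitric oxide synthase, makes nitric oxide from arginine. Both are known targets of inflammatory signals that act through NF-kB and interferons, as is Sod2, the mitochondrial enzyme that turns superoxide into hydrogen peroxide. Nfe2l2 encodes NRF2, a transcription factor held back by KEAP1 and known to be released by electrophiles, itaconate among them. Among its known targets are Hmox1, which breaks down haem, Nqo1, a quinone reductase, Gclm, the modifier subunit of the enzyme that begins glutathione synthesis, Slc7a11, the cystine carrier, Srxn1, which repairs oxidised peroxiredoxins, and Txnrd1, which reduces thioredoxin.

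Stretches before the gene start are shown for the 2 genes that stood highest over PBS with WT exosomes in microglia, Acod1 and Sod2, for Srxn1, and shorter stretches where a core of the antioxidant response element, the site NRF2 binds, was found. All come from RefSeq on GRCm38.p6, where 8 of the 10 genes had an entry; Hmox1 and Nos2 had none. In the 250 bases before the start, 5 motifs were searched on both strands: the antioxidant response element core as TGACNNNGC, an NF-kB site as GGG and TTCC with any 3 bases between, the TATA box as TATAAA, the GC box as GGGCGG and an AP-1 site as TGANTCA. The last 3 were chosen after the sequences had been read. Capitals mark matches, and a match on the other strand is printed as it reads on the gene's strand. The Txnrd1 and Gclm stretches lie before starts inside the annotated spans of those genes. The window searched for Slc7a11, which is not shown, likewise lies before a start inside its span.
Acod1 (chr14:103046762-103047011, + strand): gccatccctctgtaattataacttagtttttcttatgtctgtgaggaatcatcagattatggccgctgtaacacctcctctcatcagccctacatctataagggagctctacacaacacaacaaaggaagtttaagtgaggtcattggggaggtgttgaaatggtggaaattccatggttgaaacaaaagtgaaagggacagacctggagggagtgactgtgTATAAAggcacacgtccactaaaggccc
Sod2 (chr17:13007589-13007838, + strand): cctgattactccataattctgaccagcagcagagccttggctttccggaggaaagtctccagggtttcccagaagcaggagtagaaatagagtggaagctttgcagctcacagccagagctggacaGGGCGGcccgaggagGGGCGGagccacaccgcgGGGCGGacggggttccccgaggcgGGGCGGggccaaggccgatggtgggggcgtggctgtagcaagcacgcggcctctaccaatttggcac
Srxn1 (chr2:152105274-152105523, + strand): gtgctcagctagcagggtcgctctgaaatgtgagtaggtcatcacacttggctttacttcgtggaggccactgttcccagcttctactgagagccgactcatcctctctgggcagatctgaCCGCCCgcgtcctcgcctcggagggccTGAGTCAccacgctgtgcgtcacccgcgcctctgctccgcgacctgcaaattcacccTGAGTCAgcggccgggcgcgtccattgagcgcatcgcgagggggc
Gclm (chr3:122245403-122245451, + strand): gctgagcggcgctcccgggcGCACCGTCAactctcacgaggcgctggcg
Txnrd1 (chr10:82859094-82859142, + strand): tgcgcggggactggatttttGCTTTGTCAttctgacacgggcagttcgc
Nfe2l2 (chr2:75704875-75704913, - strand): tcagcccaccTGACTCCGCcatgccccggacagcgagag

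The windows of the genes differed in kind. That of Acod1 held a TATA box whose first base lay 28 bases before the start, and that of Sod2 held no TATA box but 4 GC boxes. Neither held an antioxidant response element core or an NF-kB match as spelled here. That core, as spelled, was found before 3 of the 8 genes (Gclm, Txnrd1 and Nfe2l2; 10.2% of the 32851 windows of that length), and Srxn1 held 2 AP-1 sites (6.75% of windows held 1 or more). The Srxn1 site nearer the start reads on as TGAGTCAgc, which differs from the core at base 4 alone, with G in place of C. A core with G at that base was not searched. An NF-kB match was found before Txnrd1 alone, in the window that holds the core shown, where it overlaps a GC box (4.65% of windows), and TATA boxes stood before Acod1 and Nqo1 (12.4%). GC boxes were the most frequent of the motifs searched, before 6 of the 8 genes and in 32.7% of all windows. Counts here are per gene and the percentages per window. The 8 genes had 10 windows, as Txnrd1 had more than 1, and a match in any of them counted. A match is a stretch of letters and not a measured site.

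Levels below are normalised counts recovered from the deposited variance-stabilised log2 values, and differences are in those log2 units, each with its standard error (SE), from limma fitted over all genes. The 2 tables were normalised separately, and tests were run within each. The libraries held 18.3 to 35.6 M reads in endothelial cells and 21.5 to 44.0 M in microglia. The 11 endothelial markers summed to 254213 to 330797 normalised counts per endothelial library. The 12 microglia markers summed to 23132 to 35601 per microglia library, of which 5 to 8 reached 100 counts. By treatment and letter the sums were 28048 to 34583 with PBS, 23132 to 26510 with exosomes in A and B and 26056 to 35601 in C. Among the 12, the homeostatic marker Tmem119 held 294 to 433 with PBS, 0 to 184 with exosomes in A and B and 111 to 186 in C, and P2ry12 was at 10.9 or less in every microglia library. In sorted bulk cells, fewer cells of a type and less RNA per cell cannot be told apart.

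Acod1 (gene 16365; GRCm38.p6, chr14:103047012-103056573), the itaconate-producing enzyme, differed 70.7-fold between the highest and the lowest microglia library. With PBS its level was 2778 normalised counts in A and 1321 in B. WT exosome libraries held 26038 in A, 19305 in B and 629 in C. KO1 libraries held 19736, 11219 and 514, and KO2 libraries 13658, 11632 and 368. The 6 exosome libraries lettered A and B therefore all lay above both PBS libraries, and the 3 lettered C all lay below them. Within a letter, WT over PBS was a ratio of 9.37 in A and 14.6 in B, KO1 over PBS 7.10 and 8.50, and KO2 over PBS 4.92 and 8.81.

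Over all letters, Acod1 stood 1.66 higher with WT than with PBS (WT minus PBS; SE 1.17; limma, adjusted p = 0.962), and the knockout mean minus PBS was 1.15 (SE 1.05; adjusted p = 0.971). In this fit, which has no letter term, none of the 10 genes passed an adjusted p of 0.05 in microglia in WT minus PBS (0% of the 12002 genes tested passed; 614 had an unadjusted p under 0.05), in the knockout mean minus PBS (0.00833%, or 1 gene; 616) or in the knockout mean minus WT (0%; 387). The call depends on that choice. With the letters as a replicate block, Acod1 passed in WT minus PBS and in the knockout mean minus PBS, and Sod2 in WT minus PBS. Those values are given below with the other alternatives, and the letters are not stated to pair samples. Without the C libraries, in a fit with 2 libraries a group, Acod1 stood 2.79 higher with WT (SE 0.305; adjusted p = 0.0738) and 2.09 higher with the knockouts (SE 0.264; adjusted p = 0.164). Without WT C alone, the WT difference was 2.79 (adjusted p = 0.749), and without WT A it was 0.98. No PBS library lettered C was available here, so the C libraries have no control of their own letter in microglia.

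Sod2 (gene 20656; chr17:13007839-13018119), the mitochondrial superoxide dismutase, split the libraries by letter in the same way, over a smaller range. PBS microglia held 6942 and 8405 normalised counts in A and B. WT libraries held 22945, 21814 and 6213 in A, B and C, KO1 libraries 17524, 18963 and 6725, and KO2 libraries 12935, 11773 and 4894. Again the A and B libraries with exosomes lay above PBS and those lettered C below it. The difference of WT from PBS was 0.89 (SE 0.555; limma, adjusted p = 0.948) and the knockout mean minus PBS 0.48 (SE 0.496; adjusted p = 0.971). Without the C libraries these were 1.46 (SE 0.165; adjusted p = 0.0738) and 0.89 (SE 0.143; adjusted p = 0.337).

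**Figure D1:**
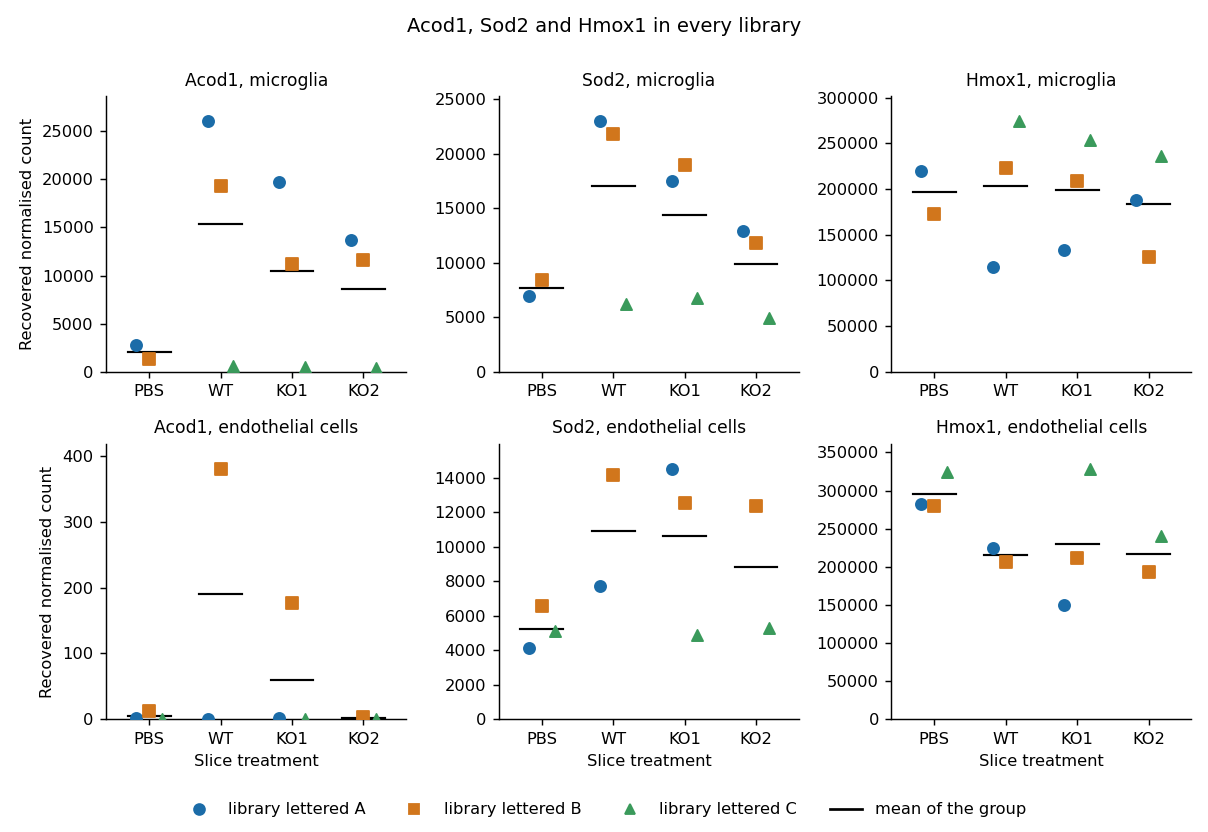
Recovered normalised counts (y axes, linear, each from 0) of Acod1, Sod2 and Hmox1 by slice treatment (x axes) in microglia (top) and endothelial cells (bottom); each point is 1 library, its shape and colour give the letter, and the bar is the group mean. In microglia the C libraries with exosomes lie lowest for Acod1 (368 to 629) and highest for Hmox1 (236576 to 273952).

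Counted over the 10 genes, every exosome library lettered A or B lay above both PBS libraries for 3 genes in microglia (Acod1, Sod2 and Srxn1; 4.13% of all genes tested) and below both for 0 (4.45%). With the C libraries included, the 9 exosome libraries lay above PBS for Srxn1 alone (1.77%) and below it for 0 genes (2.12%). The 3 WT libraries lay above PBS for Srxn1 alone (8.27%) and below it for 0 genes (9.28%). The exosome C libraries lay below all exosome A and B libraries for Acod1 and Sod2 (3.12%) and above them for Hmox1 (2.62%). The mean of A and B was 36.0 times the C library for Acod1 with WT, 30.1 times with KO1 and 34.3 times with KO2. For Sod2 these ratios were 3.6, 2.71 and 2.52, and for Hmox1 0.616, 0.674 and 0.661.

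**Figure D2:**
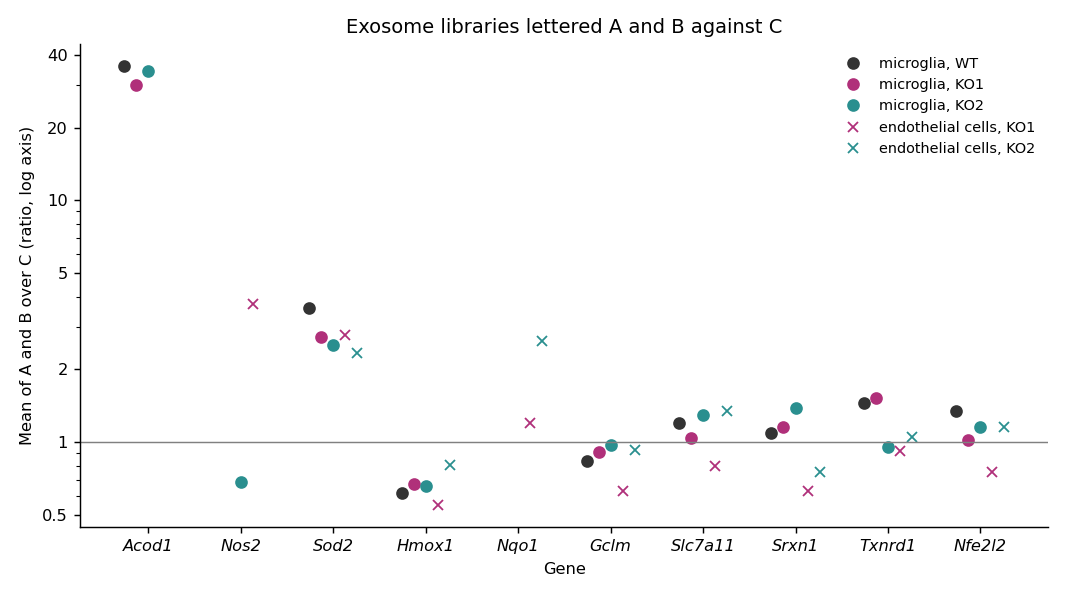
Mean of the A and B libraries divided by the C library (y axis, log scale) for each gene (x axis) and each exosome group, circles for microglia and crosses for endothelial cells; ratios with fewer than 50 counts on a side are left out. Acod1 in microglia stands at 30.1 to 36.0, Sod2 above 2 in both cell types, and Hmox1 below 1 in both.

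Some inducers of Acod1 and Nos2 showed the same split between letters. A list of such signals also held genes that relay or restrain them, such as Nfkbia, an inhibitor of NF-kB. Of its 13 tested genes, 6 were lower in every exosome C library than in every exosome A or B library of microglia (Ifnb1, Il1b, Nfkbia, Nfkbiz, Tlr2 and Tnf; 3.12% of all genes tested) and 0 were higher (2.62%). Il1b, the cytokine interleukin 1 beta, stood at 2502 to 3647 normalised counts with PBS, 4513 to 14902 with exosomes in A and B, and 281 to 663 in C. Tnf stood at 3596 to 4807, 7326 to 13459 and 4470.3 to 4894. Ifnb1, interferon beta, was at 0 with PBS, at 331 to 1047 with exosomes in A and B, and at 0 to 129 in C. Hif1a, the gene of smallest p in the list in WT minus PBS, went the other way. It stood at 3787 to 3859 with PBS, 1706 to 3757 in A and B and 1477 to 2907 in C. Every exosome library thus lay below PBS for it (2.12% of all genes), whereas 9 of the 13 had a positive difference of WT from PBS. Among NADPH oxidase subunits, which make superoxide in phagocytes, 3 of 8 were lower in C (Cybb, Ncf4 and Rac2; 3.12% of all genes), and the catalytic subunit Cybb stood at 852 to 1854 with PBS, 3334 to 10386 in A and B and 293 to 475 in C.

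Markers of other cells also differed between letters, in part with the same split. In microglia, 9 border macrophage markers summed to 2767 to 4805 with PBS, 4667 to 9297 with exosomes in A and B and 2485 to 3262 in C, and 3 or 4 of the 9 reached 100 counts. In A the sum was 4805 with PBS against 4667 with WT, 5086 with KO1 and 5317 with KO2. In B it was 2767 with PBS against 9111, 9297 and 7767. Of the 9, Ms4a7 stood at 103 to 193 with PBS, 783 to 1737 in A and B and 146 to 738 in C. Pf4 stood at 1342 to 1795, 1044 to 4924 and 368 to 557, and Stab1 at 1232 to 2725, 2192 to 3898 and 1479 to 2105. Cd163 and Cbr2 were at 0 in every library and Lyve1 at 36.7 at most. The 12 markers of monocytes and neutrophils summed to 8.67 to 58.4, 122 to 592 and 7.14 to 109.8, and 1 or 2 of the 12 reached 100 counts in each A and B library with exosomes, against 0 of 12 in the others. In A and B, Mmp8 reached 582 and S100a8 119.9, both at 0 with PBS, and Csf3r also passed 100, against 54.2 at most with PBS. Ly6c2 (1.16 at most), Plac8 (1.27), Ccr2 (25.3) and Ly6g (0) were low in every library, and 4 of the 12 were at 0 throughout. The part of these cells in the levels of Acod1 and Sod2 was not tested.

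For the knockout question, Acod1 was lower with knockout than with WT exosomes of the same letter in all 6 pairs of microglia libraries. These pairs share 3 WT libraries and are not independent, and the share of all genes tested with such a pattern was not counted. KO1 over WT was 0.758 in A, 0.581 in B and 0.817 in C, and KO2 over WT was 0.525, 0.603 and 0.586. Sod2 was lower with KO2 in the 3 letters (0.564, 0.540 and 0.788) and with KO1 in A and B but not in C (0.764, 0.869 and 1.08). Over all letters the knockout mean minus WT was -0.50 for Acod1 (SE 0.909; limma, adjusted p = 1) and -0.41 for Sod2 (SE 0.43; adjusted p = 1). Without the C libraries these were -0.70 and -0.57 (adjusted p = 1 for both), and without WT A the Acod1 difference was 0.17. No gene of the 10 lay wholly above or wholly below WT across the 6 knockout libraries (0.833% and 0.875% of all genes tested).

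**Figure D3:**
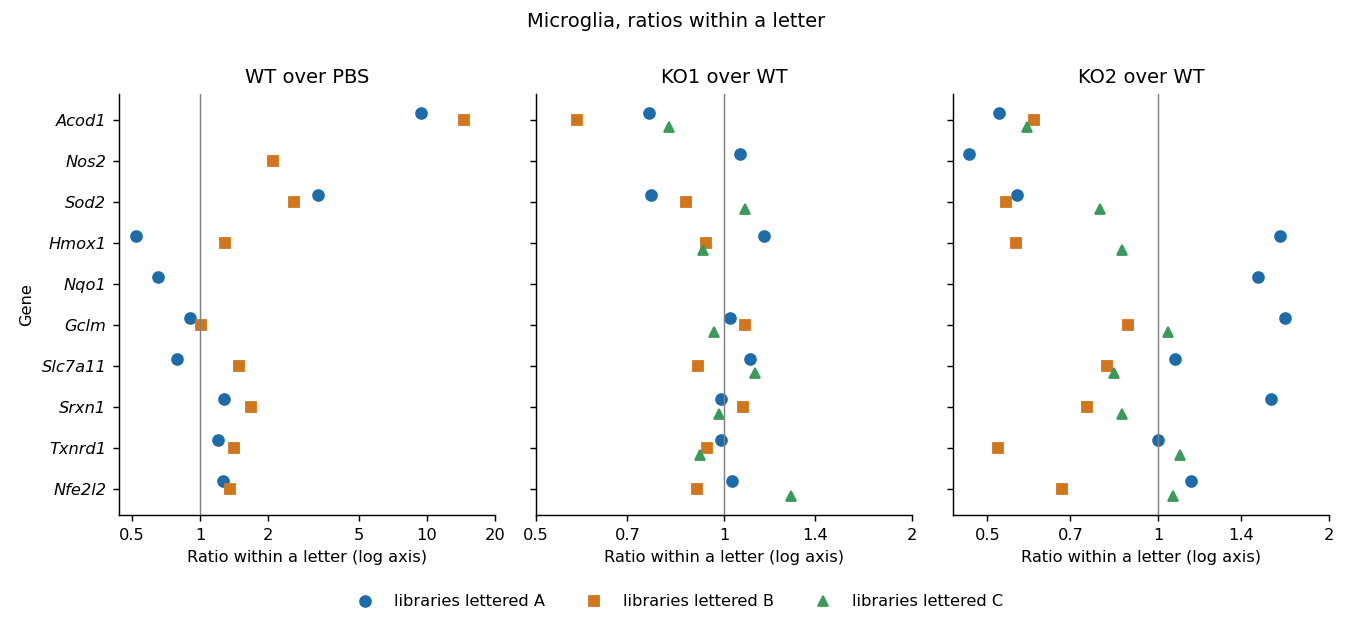
Ratios of normalised counts between microglia libraries of the same letter (x axes, log scale) for the 10 genes (y axis), with WT over PBS on the left, KO1 over WT in the middle and KO2 over WT on the right; shapes and colours give the letters, and pairs with fewer than 50 counts on a side are left out. Acod1 lies at 9.37 and 14.6 on the left and below 1 at every letter in the other panels (0.525 to 0.817).

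The authors' deposited table of 238 microglia genes from a likelihood ratio test ranks Acod1 first by p (log2 fold change -0.80, SE 0.171; adjusted p = 2.16e-49) and Sod2 eighth (-0.69, SE 0.146; adjusted p = 1.47e-14). Its contrast is not stated in the sources used here. Over 180 of its genes with at least 100 counts in every library, the fold change in the authors' deposited table differed by a median of 0.0107 from KO2 minus WT as computed from the recovered counts, and by 0.317 or more from the other 5 differences between groups. Over 212 genes of the authors' deposited table for endothelial cells that gap was 0.00728 with a term for the letters and 0.148 without one. In microglia it was 0.0107 with or without that term, so it cannot show whether the authors' microglia test held one. A likelihood ratio test addresses any difference among the groups, so its p-values do not belong to a single fold change. In the fit used here, without a letter term, KO2 minus WT for Acod1 was -0.60 on the deposited log2 scale (SE 1.05). The source of the gap between the authors' result and this fit was not tested. The authors' deposited table for endothelial cells lists 362 genes and 0 of the 10.

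Single knockout contrasts gave no call either: 0 of the 10 genes passed in KO1 minus WT, KO2 minus WT or KO1 minus KO2 in either cell type by limma, where 0% of all genes tested passed. Sod2 was higher with KO1 than with KO2 in the 3 letters of microglia, at ratios of 1.35 to 1.61. Acod1 was higher with KO1 in 2 of 3 letters (0.965 to 1.45). For these patterns too the share of all genes was not counted.

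Nos2 (gene 18126; chr11:78920787-78960226), the inducible nitric oxide synthase, was low and uneven in microglia. Its level was 3.45 and 202 normalised counts with PBS, 800.0, 425 and 0 in WT A, B and C, 849, 4.79 and 0 in KO1, and 371, 0 and 271 in KO2. The groups overlapped. Values below about 54.3, the lowest mean among the genes the authors listed, are approximate in microglia. The WT mean stood 0.12 above PBS (SE 0.364; limma, adjusted p = 0.996), and -0.05 without PBS A or -0.09 without WT A. In endothelial cells Nos2 held 292 to 1048 with PBS and 0 to 1188 with exosomes, and both exosome C libraries (171 and 0) lay below the A and B libraries (485 to 1188). Of 14 other genes of nitric oxide and arginine metabolism tested in microglia, Arg1, Ass1 and the arginine carrier Slc7a2 were lower in C than in A and B (3 of 14, against 3.12% of all genes), and Ddah1 was higher (1 of 14, against 2.62%).

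Hmox1 (gene 15368; chr8:75093618-75100593), which breaks down haem, was the most abundant of the 10 genes per length in both cell types. Its microglia level was 220181 and 172925 with PBS. WT libraries held 114397, 222867 and 273952 in A, B and C, KO1 libraries 133042, 208540.3 and 253468, and KO2 libraries 187688, 125169.9 and 236576. The C libraries were the highest of each exosome group and lay above both PBS libraries, while the A and B libraries spanned them. A was lower than B in WT and KO1 and higher in KO2. For WT against PBS the difference was -0.04 (SE 0.470; limma, adjusted p = 1), and 0.18 without PBS A or 0.41 without WT A. Slc40a1, the iron exporter, was likewise higher in C (9016 to 14961) than in the A and B libraries with exosomes (2915 to 7743), with PBS at 3388 to 10053.

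In endothelial cells Hmox1 held 281726, 280305 and 324259 with PBS, 224169 and 206153 with WT (A, B), 149897, 211408 and 328375 with KO1, and 192537 and 240320.2 with KO2 (B, C). The 5 exosome libraries lettered A or B lay below PBS, as did KO2 C, and KO1 C lay above it. With WT, Hmox1 differed from PBS by -0.42 (SE 0.588; limma, adjusted p = 0.849) and the knockout mean minus PBS -0.41 (SE 0.474; adjusted p = 0.960).

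Sod2 in endothelial cells was likewise higher in the A and B libraries with exosomes. PBS libraries held 4125, 6539 and 5102 in A, B and C. WT held 7722 and 14152 in A and B, KO1 held 14512, 12507 and 4864, and KO2 held 12333 in B and 5270.1 in C. The A and B libraries with exosomes lay above the 3 PBS libraries, and the C libraries lay within the PBS range. Here a PBS library of the same letter exists: over PBS C, KO1 C was 0.953 and KO2 C 1.03, against 1.87 to 3.52 for the exosome libraries lettered A and B over PBS of their letter. WT minus PBS was 0.41 (SE 0.214; limma, adjusted p = 0.56) and the knockout mean minus PBS 0.32 (SE 0.172; adjusted p = 0.851).

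None of the 10 genes passed in endothelial cells in WT minus PBS (0% of 12197 genes tested; 1214 had an unadjusted p under 0.05), in the knockout mean minus PBS (0.041%, or 5 genes; 794) or in the knockout mean minus WT (0%; 1015). With exosomes in A and B, Sod2 lay above all PBS libraries (3.96% of all genes), and Hmox1 and Txnrd1 lay below them (4.39%). Over all exosome libraries that held for Txnrd1, lower (1.96%), and for 0 genes higher (1.12%). Both WT libraries lay above PBS for Sod2 (14.1%) and below it for Hmox1, Gclm, Srxn1 and Txnrd1 (18.9%). The exosome C libraries lay above those lettered A and B for Hmox1, Gclm and Srxn1 (5.75%) and below them for Nos2 and Sod2 (5.81%). The 5 knockout libraries lay wholly above or below WT for 0 genes (4.03% and 4.46%).

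Markers of the choroid plexus and ependyma, 11 genes led by Ttr, split the endothelial libraries along the same lines. They summed to 75.4 to 4733 with PBS, 168197 to 284612 with exosomes in A and B and 2956 to 17538 in C, and 6 to 9 of the 11 reached 100 counts in the A and B libraries. Markers of fibroblasts and meninges summed to 682 to 1552, 1859 to 7776 and 166 to 1865. The endothelial markers themselves summed to 302123 to 330797 with PBS, 254213 to 312643 in A and B and 295383 to 312905 in C. The part of these cells in the levels of Sod2, Hmox1, Gclm and Srxn1 was not tested.

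Acod1 was nearly absent from endothelial cells. It was at 12.3 normalised counts or less in 8 of the 10 libraries, and stood at 380.5 in WT B and 177 in KO1 B. The 12 microglia markers summed to 2019 and 1320.3 in those libraries and to 71.7 to 2089.7 over all endothelial libraries, where KO2 B (2089.7) held 2.75 of Acod1. Csf1r stood at 0 to 26 with PBS, 0 to 246 with exosomes in A and B and 0 in C, Tmem119 was at 3.77 at most and P2ry12 at 0. For the 9 border macrophage markers the sum was 8049 (WT B) and 9485 (KO1 B), against 8049 to 19129 over all libraries. Of the 9, 4 reached 100 counts in WT B and 3 in KO1 B, against 1 to 3 in the other libraries, and in A and B libraries with exosomes Pf4 reached 811, F13a1 481 and Ms4a7 329. The part of microglial or macrophage RNA in these values was not tested.

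Of the NRF2 branch, Nfe2l2 itself (gene 18024; chr2:75675513-75704663) held 4819 and 4392 normalised counts in PBS microglia, 6049.6, 5958 and 4439.8 in WT A, B and C, 6254, 5395 and 5692 in KO1, and 6923, 4037 and 4722 in KO2. The 3 KO1 libraries lay above both PBS libraries, while WT and KO2 overlapped PBS. How many of all genes lay so with KO1 was not counted; with WT, 8.27% did. WT minus PBS was 0.18 (SE 0.181; limma, adjusted p = 0.978). In endothelial cells it held 11977, 8938 and 14762 with PBS, 11334 and 8682 with WT, 7881, 6136 and 9319 with KO1, and 9047 and 7864 with KO2. KO1 was below PBS of its letter in 3 of 3 (0.631 to 0.687), KO2 was at 1.01 of PBS in B and 0.533 in C, and the knockout mean minus PBS was -0.24 (SE 0.0899; limma, unadjusted p = 0.0247, adjusted p = 0.662). The knockout mean minus WT was -0.13 (SE 0.103; limma, adjusted p = 0.774). How many of all genes lay below PBS with KO1 in each letter was not counted.

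Srxn1 (gene 76650; chr2:152105524-152111376), the sulfiredoxin, held 15908 and 17691 in PBS microglia, 20359.5, 29599 and 22815 in WT A, B and C, 20148, 31663 and 22371 in KO1, and 32255, 22212 and 19665 in KO2. All 9 exosome libraries, those lettered C included, lay above both PBS libraries. WT minus PBS was 0.52 (SE 0.264; limma, adjusted p = 0.948) and the knockout mean minus PBS 0.54 (SE 0.236; unadjusted p = 0.0438, adjusted p = 0.961). In endothelial cells the order was another: 47983, 63485 and 55562 with PBS, 45285 and 40723 with WT, 34029.8, 50145 and 67353 with KO1, and 45496 and 60303 with KO2. Both WT libraries lay below PBS, at a difference of -0.27 (SE 0.203; adjusted p = 0.699), and the knockout libraries spanned it.

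**Figure D4:**
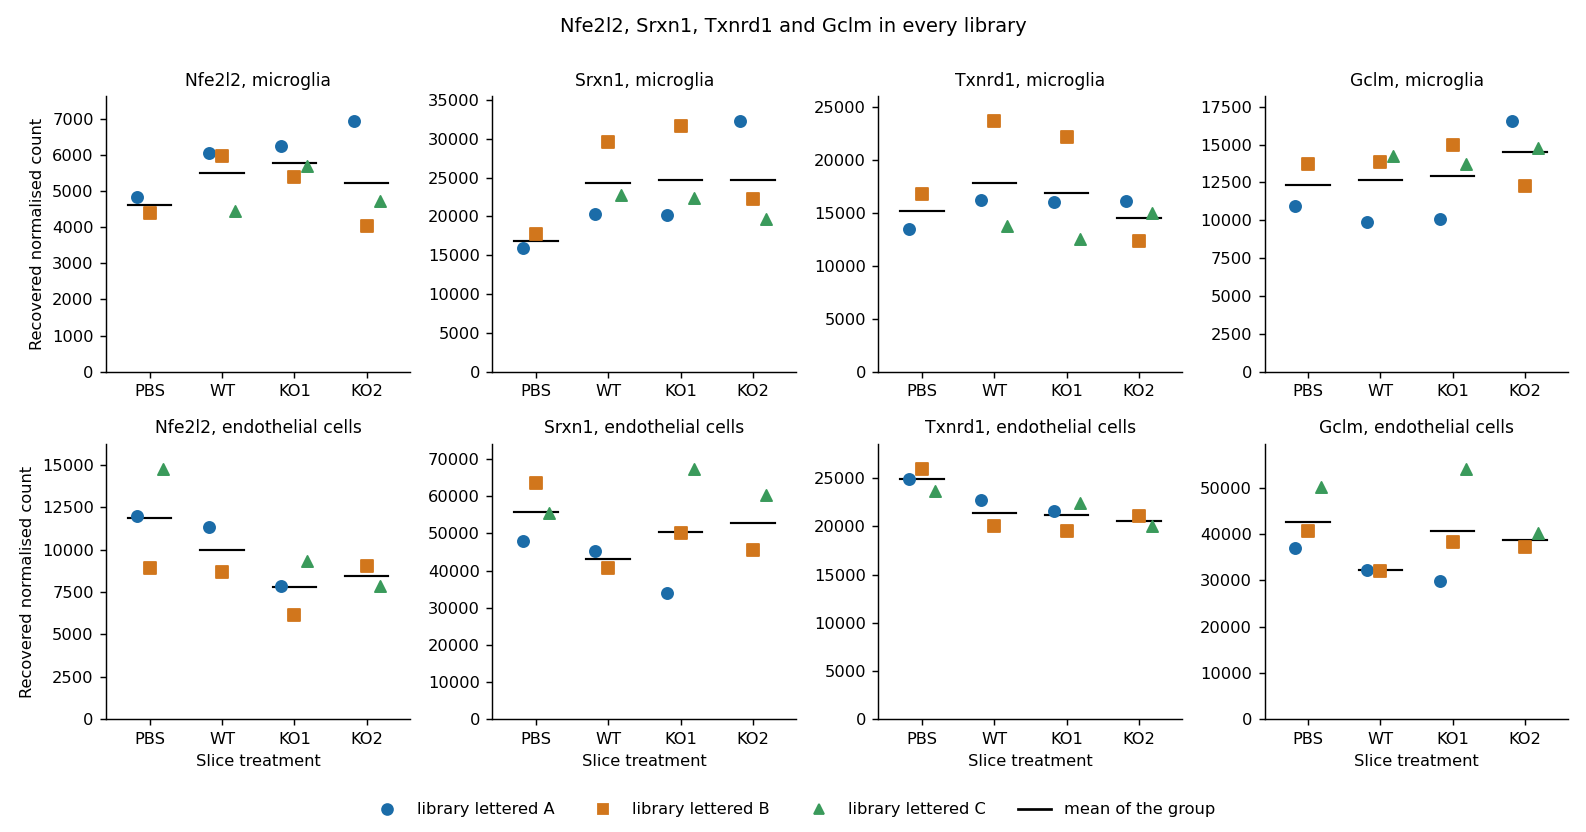
Recovered normalised counts (y axes, linear, each from 0) of Nfe2l2, Srxn1, Txnrd1 and Gclm by slice treatment (x axes) in microglia (top) and endothelial cells (bottom); each point is 1 library, its shape and colour give the letter, and the bar is the group mean. All 9 microglia libraries with exosomes lie above PBS for Srxn1, and all 7 endothelial libraries with exosomes lie below PBS for Txnrd1.

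Txnrd1 (gene 50493; chr10:82833951-82897724), the cytosolic thioredoxin reductase, differed 1.33-fold between its highest and lowest endothelial library. It held 24933, 25967 and 23721 with PBS, 22720.5 and 20071 with WT, 21631, 19557 and 22466 with KO1, and 21078 and 20015 with KO2. The 7 exosome libraries all lay below the 3 PBS libraries. WT minus PBS was -0.13 (SE 0.0736; limma, adjusted p = 0.587) and the knockout mean minus PBS -0.15 (SE 0.0593; unadjusted p = 0.0291, adjusted p = 0.665). In microglia Txnrd1 held 13467 and 16776 with PBS and 12361 to 23622 with exosomes, the highest being WT B and KO1 B (22143).

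Gclm (gene 14630; chr3:122245487-122267215), a glutathione synthesis subunit, held 36972, 40677 and 50135 in PBS endothelial cells, 32297 and 32090.5 with WT, 29895, 38308 and 54093 with KO1, and 37223 and 40189 with KO2. WT lay below PBS, at a difference of -0.27 (SE 0.167; limma, adjusted p = 0.624), and the knockout mean minus WT was 0.20 (SE 0.154; adjusted p = 0.774). In microglia it ranged from 10926 to 13715 with PBS and from 9901 to 16531 with exosomes. Slc7a11 (gene 26570; chr3:50364936-50499087), the cystine carrier, overlapped between groups in both cell types: 18947 to 19581 with PBS and 15049 to 29153 with exosomes in microglia, 13891 to 18771 and 9331 to 20327 in endothelial cells. In microglia it was higher in B than in A in every exosome group. Nqo1 (gene 18104; chr8:107388225-107403205), the quinone reductase, was at 134 or less in every microglia library and at 0 in PBS B and WT B. In endothelial cells it held 1726 to 4269 with PBS and 1165 to 3515 with exosomes.

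**Figure D5:**
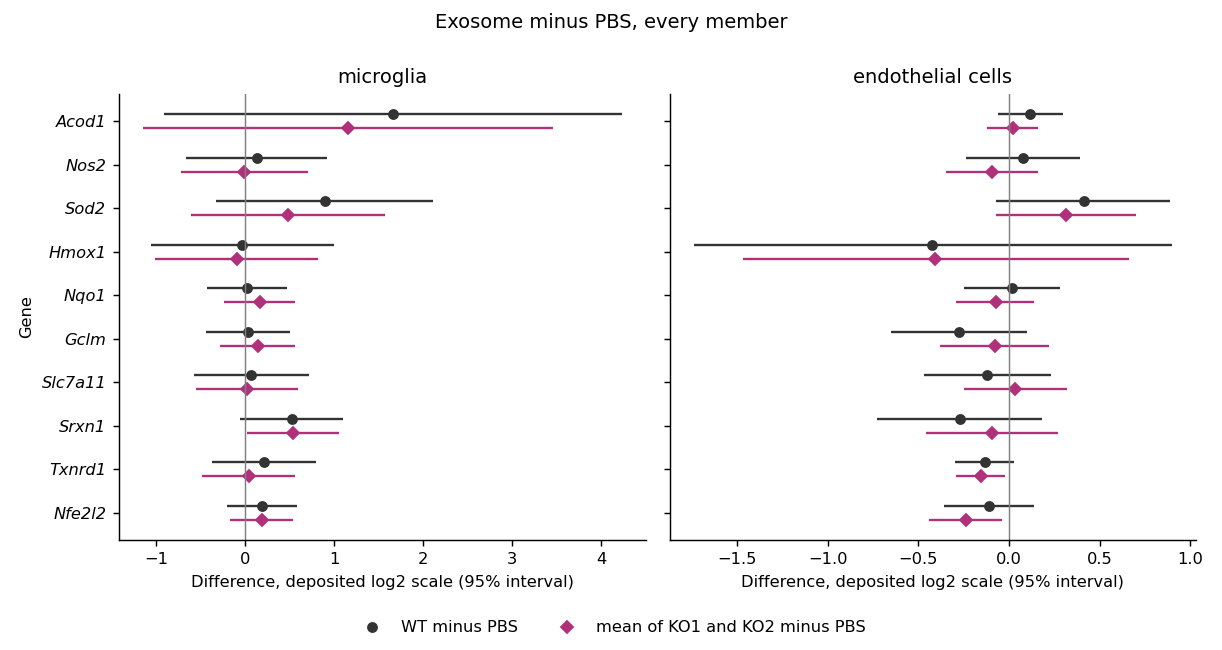
Differences from PBS on the deposited log2 scale (x axes) for the 10 genes (y axis) in microglia and endothelial cells; points are limma estimates, circles for WT and diamonds for the mean of KO1 and KO2, and lines are 95% intervals not adjusted for the number of genes. The interval of Acod1 in microglia runs from -0.91 to 4.23 with WT. The intervals that leave out 0 are those of Srxn1 in microglia and of Txnrd1 and Nfe2l2 in endothelial cells, each for the knockouts. Units are not alike in the 2 panels. Mean Sod2 counts of 5255 (PBS) and 10937 (WT) in endothelial cells go with a difference of 0.41. In microglia 7674 and 16991 go with 0.89.

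The rest of the pathway gave no call in either direction by limma in the 3 main contrasts of either cell type. All 22 other NRF2 targets and all 10 genes of NRF2 control were tested in both. For the other lists the numbers tested, in endothelial cells and microglia, were 27 and 24 of 27 other antioxidant enzymes, 7 and 5 of 10 genes of cystine and glutathione metabolism, and 16 and 14 of 17 of nitric oxide and arginine metabolism. They were 21 and 22 of 23 of the citric acid cycle and itaconate, and 7 and 7 of 8 of haem breakdown and iron export. For NADPH oxidase genes they were 7 and 8 of 12, and for the list of inducers 12 and 13 of 14. In microglia 15 of the 22 other NRF2 targets had a positive difference of WT from PBS, as did 50.3% of all genes (median 0.11, against 0 over all genes). None of the 22 had an unadjusted p under 0.05, and the 2 of smallest p were Me1, malic enzyme (0.29, SE 0.148), and Pgd of the pentose phosphate pathway (0.38, SE 0.207; adjusted p = 0.948 for both). Keap1, the inhibitor of NRF2, was 0.53 higher (SE 0.153; adjusted p = 0.836). In endothelial cells 13 of the 22 targets had a positive difference, as did 44.3% of all genes (median 0.06, against -0.01 over all genes). There the 2 genes of smallest p in NRF2 control were Mafk, a small Maf partner of NRF2 (-0.75, SE 0.185; adjusted p = 0.297), and Mafg (0.21, SE 0.0750; adjusted p = 0.410). Mt2, a metallothionein, stood 0.34 above PBS with the knockouts (SE 0.0673; adjusted p = 0.225). Of all these lists, the authors' deposited table for microglia holds Tnf, Il1b, Tlr2, Ifnb1 and the NF-kB inhibitor Nfkbia from the list of inducers. It also holds the NADPH oxidase gene Cybb, and Keap1, Glrx and Mt2. The authors' deposited table for endothelial cells holds Fth1, Hmox2, Mafg, Mafk and Slc1a1.

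Genes with the pattern most like that of Acod1 over the 11 microglia libraries were the chemokine genes Ccl5 (Pearson r = 0.979) and Cxcl1 (0.965) and the protease gene Mmp14 (0.976). For Sod2 in microglia they were Nfkbia (0.964), an inhibitor of NF-kB, Csf3 (0.961) and Zc3h12a (0.956), and for Slc7a11 Bcl2a1d (0.977) came first. In endothelial cells Sod2 was most like Krt18 (0.968), Lcn2 (0.961) and Ldha (0.959) over 10 libraries. Lcn2, an iron-siderophore binding protein, stood at 3032 to 4842 with PBS, 17013 to 41221 with exosomes in A and B, and 1497 to 5755 in C. These correlations describe libraries that share letters and treatments.

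Per kilobase of exon and with PBS, microglia held 125273 normalised counts of Hmox1, 5974 of Srxn1, 3712 of Txnrd1, 2204 of Gclm, 1956 of Slc7a11, 1861 of Nfe2l2, 1309 of Sod2, 781 of Acod1, 43.3 of Nqo1 and 24.0 of Nos2. The ranges of Gclm and Slc7a11 overlapped, as did those of Slc7a11 and Nfe2l2 and those of Nqo1 and Nos2. Endothelial cells held 188292 of Hmox1, 19799.7 of Srxn1, 7621 of Gclm, 6105 of Txnrd1, 4805 of Nfe2l2, 1920.3 of Nqo1, 1611 of Slc7a11, 897 of Sod2, 159 of Nos2 and 1.76 of Acod1, with ranges that overlapped for Txnrd1 and Nfe2l2, and for Nqo1 with both Slc7a11 and Sod2.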

How the data were processed

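Per the submitters' processing notes, the authors used Salmon 0.10.0, DESeq2 1.18.1, Trimmomatic 0.38 and FastQC 0.11.7, and the build was GRCm38.p6; roles are not given in the sources used here. For each cell type the authors deposited variance-stabilised counts in log2 units, with genes without reads at a floor (13.2814 in endothelial cells, 9.8893 in microglia), and a second table of mean normalised counts (a signal), log2 fold changes, test statistics and their SE (scores), and p-values.

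Normalised counts were recovered from the deposited log2 values: by a closed inverse in endothelial cells, and in microglia by a monotone curve through the authors' 238 means and repeated low values (largest error for genes held out 0.581%). Values stepped by what 1 read is worth; 73.4 to 89.4% of low values lay within 0.05 of a whole number of reads, and read totals come from these steps. Variance-stabilised differences understate changes of weakly expressed genes, and in endothelial cells of strongly expressed genes as well.

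Genes above the floor in at least 3 libraries were tested (12197 and 12002) in limma 3.58.1 (R 4.3.3), taking the deposited log2 values as they are, with 1 fit per cell type over its libraries, a trend of variance with level and no letter term. Benjamini-Hochberg adjustment ran over all genes tested, with a threshold of 0.05. The fit was tested on simulated data. Alternatives were another filter, scale, scaling, variance model, set of libraries, letters as a block and each library left out. The 10 genes, the pathway and marker lists and the tests were chosen with earlier results of these data known. Within the pathway lists, genes that passed, or else the 2 of smallest p in a list and contrast, could be named; other genes are named where the letters split them, and these were chosen after their values were seen. Per-kilobase values divide by the union of exons in GENCODE vM21.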

Additional observations from a re-analysis of the deposited data

Results flagged for a closer look

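Of the 7 genes with at least 50 counts in each library compared, 3 stood below PBS with WT exosomes in endothelial cells and above it in microglia, in both letters that have a PBS library, and 0 showed the opposite pattern. Over all 5876 genes with such counts these shares were 6.31% and 8.56%. None of the 3 passed the limma threshold in either cell type. The difference between cell types was not tested, the tables were normalised separately, and only 2 letters stand behind each direction. Srxn1 over PBS was 0.944 and 0.641 in endothelial cells and 1.28 and 1.67 in microglia. Txnrd1 over PBS was 0.911 and 0.773 in endothelial cells and 1.2 and 1.41 in microglia. Nfe2l2 over PBS was 0.946 and 0.971 in endothelial cells and 1.26 and 1.36 in microglia.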

How the results depend on the processing

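Of 246 counts of members called under the alternatives, 244 kept the value of 0. The exceptions came with the letters as a replicate block in microglia, where 2 genes (Acod1 and Sod2) passed in WT minus PBS and 1 (Acod1) in the knockout mean minus PBS, among 19 and 11 genes of all tested. The block changed no other call of these genes. Under it Acod1 was 2.66 (SE 0.186; limma, adjusted p = 0.000921) and 2.15 (SE 0.168; adjusted p = 0.00248), and Sod2 1.35 (SE 0.166; adjusted p = 0.0127) with WT and 0.94 (adjusted p = 0.0584) with the knockouts. The letters are not stated to pair samples. Deviations of same-letter pairs correlated at 0.02 to 0.23 in endothelial cells (7 of 12 above 0.1) and 0.01 to 0.33 in microglia (7 of 15). Microglia pairs with a PBS library lay at 0.01 to 0.07. PBS had no C library there, so its deviations were taken from A and B alone, and these pairs say little about the letters. The 7 microglia pairs above 0.1 all joined exosome libraries, and pairs of C libraries lay at 0.32 to 0.33. In endothelial cells 9 of 10 libraries, and in microglia 10 of 11, correlated best with 1 of their own letter. Of 612 differences of named genes, 604 kept direction and side of the threshold. The exceptions were the 3 that passed under the block and 5 that reversed when 1 library was left out, for which the cause was not tested. These were Acod1 in the knockout mean minus WT (from -1.63 to 0.17; 0.17 without WT A), and, in WT minus PBS, Nos2 (from -0.09 to 0.44; -0.05 without PBS A, -0.09 without WT A) and Hmox1 (from -0.35 to 0.41; 0.18 without PBS A, 0.41 without WT A), all in microglia. Genes called over the whole table ranged from 0 to 46 in endothelial cells (knockout mean minus WT, without WT B; at most 19 in the knockout mean minus PBS and 13 in WT minus PBS, on log2 of counts plus 50) and from 0 to 19 in microglia. Groups of 2 or 3 libraries, the missing microglia PBS C and counts near 0 (Nos2 and Nqo1 in microglia, Acod1 in endothelial cells) limit what could be seen.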

Other observations

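Of 24 other antioxidant enzymes tested in microglia, Cat (catalase), Prdx3 and Prdx6 were higher in every exosome C library than in every exosome library lettered A or B (3 of 24, against 2.62% of all genes), and Glrx (glutaredoxin) was lower (1 of 24, against 3.12%). In endothelial cells 2 of 27 were higher (5.75% of all genes) and 2 of 27 lower (5.81%), shares near those over all genes. Prdx6, a peroxiredoxin, stood at 12394 to 14453 normalised counts in C, 4988 to 10959.5 in A and B, and 7445 to 7853 with PBS. In endothelial cells Prdx6 was again higher in C (16847 to 21079.8) than in A and B (4424 to 13338) or with PBS (6206 to 7971), whereas Cat was lower in C (3540.4 to 4086) than in A and B (4949.7 to 6155). Slc40a1 was higher in C in both cell types, and in endothelial cells it stood at 19498 to 22778 in C, 6524 to 16136 in A and B, and 19125 to 45564 with PBS. Slc7a2, the arginine carrier, was lower in C in both: in endothelial cells 1279.8 to 1443, against 1481 to 5989 in A and B. Mafk, a partner of NRF2, stood at 17313 to 31808 in PBS endothelial cells, 6966 to 11679 with exosomes in A and B and 14822 to 17405 in C. The part of the other cell types named above in these values was not tested.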
